A study of Mus musculus with 7 samples.

Results

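The variable (V) segments of the immunoglobulin heavy chain locus were examined for CTCF and cohesin binding in mouse liver. Their members were all genes of the GENCODE vM1 annotation of mouse assembly NCBIM37 (mm9) on chromosome 12 whose symbol begins with Ighv, either in the annotation itself or as the current RefSeq name of an older symbol. This rule found 116 genes of 37310 annotated ones. Of these, 37 carry an Ighv symbol in the annotation and 79 carry an older symbol such as Gm16609 for Ighv5-17. The annotation calls 112 of them V genes, 2 protein-coding genes and 2 pseudogenes. They form 16 numbered sequence families between chr12:114812453, the start of Ighv2-1 (Gm17347), and chr12:117238672, the end of Ighv1-85, a cluster of 2.43 Mb. The median member is 433 bp long, the median gap between neighbours is 17.2 kb, and 114 of the 116 lie on the minus strand. The exceptions are Ighv5-8 (Gm17309) and Ighv1-13 (Gm17686).

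The peaks came from ChIP-seq of livers of males of the CD-1 stock, aged 8 weeks, in 4 CTCF libraries and 3 libraries of Rad21, a subunit of cohesin. CD-1 is an outbred stock, and the reads were mapped to the reference assembly, so that differences in V segment content between these mice and the reference were not tested. The reads of each factor were merged before peaks were called, which leaves no spread between mice for any value below. The nuclei came from whole liver, which holds cell types other than hepatocytes, and their shares were not tested. Peaks were taken from 100 kb before the first to 100 kb after the last segment, a window of 2.63 Mb that held 26 of 76683 CTCF peaks and 7 of 67369 Rad21 peaks.

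In developing B cells, a heavy chain gene is assembled by joining a V, a D and a J segment. The RAG recombinase cuts beside each segment at a recombination signal sequence, which consists of a heptamer, a spacer and a nonamer and which lies directly after the 3′ end of a V segment. The V segments form a long array upstream of the D, J and constant genes, and distal ones must be brought close to the D and J segments before they can be joined. CTCF binds DNA through its zinc fingers at a directional motif and halts cohesin as it extrudes chromatin loops, most often where a pair of motifs point toward each other. Adult liver does not assemble antibody genes, and the peaks below describe the locus in whole liver. A contribution of B lineage cells to them was not tested.

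Most CTCF peaks of the cluster, 15 of 20, had their CTCF motif directly behind a V segment. At 14 of these 15 the motif stood just past a recombination signal. The sequences of 8 of these places show this arrangement. They cover the 7 families with a peak within 1 kb, are from assembly NCBIM37, run 5′ to 3′ on the minus strand, which is the direction of the segments, and begin with the last bases of the segment. Capitals mark, in this order, the heptamer, the nonamer and the CTCF motif of 19 bases. The stretches lie at chr12:115097281-115097371 (Ighv5-17), chr12:115117226-115117318 (Ighv2-9), chr12:115134538-115134636 (Ighv7-1), chr12:115604650-115604748 (Ighv12-3), chr12:115186412-115186504 (Ighv4-1), chr12:115220009-115220101 (Ighv11-1), chr12:115286371-115286463 (Ighv11-2) and chr12:115672918-115673010 (Ighv6-6).
Ighv5-17: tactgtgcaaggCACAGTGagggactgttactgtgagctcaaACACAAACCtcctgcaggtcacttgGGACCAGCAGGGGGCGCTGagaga
Ighv2-9: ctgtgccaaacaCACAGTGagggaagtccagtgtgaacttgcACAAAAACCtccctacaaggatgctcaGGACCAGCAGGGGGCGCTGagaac
Ighv7-1: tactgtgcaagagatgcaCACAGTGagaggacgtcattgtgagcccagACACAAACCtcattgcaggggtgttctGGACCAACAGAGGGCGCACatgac
Ighv12-3: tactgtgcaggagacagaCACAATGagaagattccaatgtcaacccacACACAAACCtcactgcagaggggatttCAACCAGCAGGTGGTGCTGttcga
Ighv4-1: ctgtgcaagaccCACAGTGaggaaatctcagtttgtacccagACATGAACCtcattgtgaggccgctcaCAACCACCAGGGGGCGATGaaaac
Ighv11-1: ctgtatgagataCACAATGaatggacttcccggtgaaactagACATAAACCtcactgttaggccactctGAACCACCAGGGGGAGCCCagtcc
Ighv11-2: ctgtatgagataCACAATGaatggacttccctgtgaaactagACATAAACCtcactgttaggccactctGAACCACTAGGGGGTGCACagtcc
Ighv6-6: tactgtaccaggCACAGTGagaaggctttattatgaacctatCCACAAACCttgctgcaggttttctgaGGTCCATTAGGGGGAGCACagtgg

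The heptamer was searched as CACAGTG and the nonamer as ACAAAAACC on the strand of the segment, from 15 bases before to 75 bases past its annotated 3′ end, with a spacer of 22 to 24 bases, the first 3 bases of the heptamer fixed and at least 13 of the 16 letters matched. By this search 95 of the 116 segments had a signal, and 2 matched all 16 letters. Of 11646 evenly spaced places on chromosome 12 searched alike, 7 held a match, a share of 0.0601%. Of the 15 segments with a CTCF summit within 1 kb, 14 had the signal. The exception was Ighv7-2, where the best arrangement matched 10 letters.

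The CTCF motif began 50 to 64 bp past the 3′ end of these 15 segments, with a median of 58 bp. In the 13 of them with both a signal and a motif match at p of at most 1e-05, between 16 and 18 bases separated the nonamer from the motif, with a median of 18. The CTCF motif here is a matrix learnt from 2000 anchor sites of odd-numbered autosomes, and its score is a log2 odds. Some of these motifs were identical over all 19 bases. GGACCAGCAGGGGGCGCTG followed both Ighv5-17 and Ighv2-9, which belong to different families, and CAACCAGCAGGGGGCGCTG followed Ighv2-3 and Ighv2-6-8. GGACCAACAGGGGGCGCAC followed Ighv7-2 and Ighv7-4. The words of the bound cluster matches, 13 in number, occurred at 0 other places among the motif matches of the even-numbered autosomes outside the window.

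The position of the summit itself varied more than that of the motif. Summits lay from 23 bp before to 130 bp past the 3′ end, with a median of 67 bp past it. A summit fell inside the segment at Ighv4-1, 14 fell past the 3′ end, and 0 fell within 1 kb before the 5′ end.

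**Figure D1:**
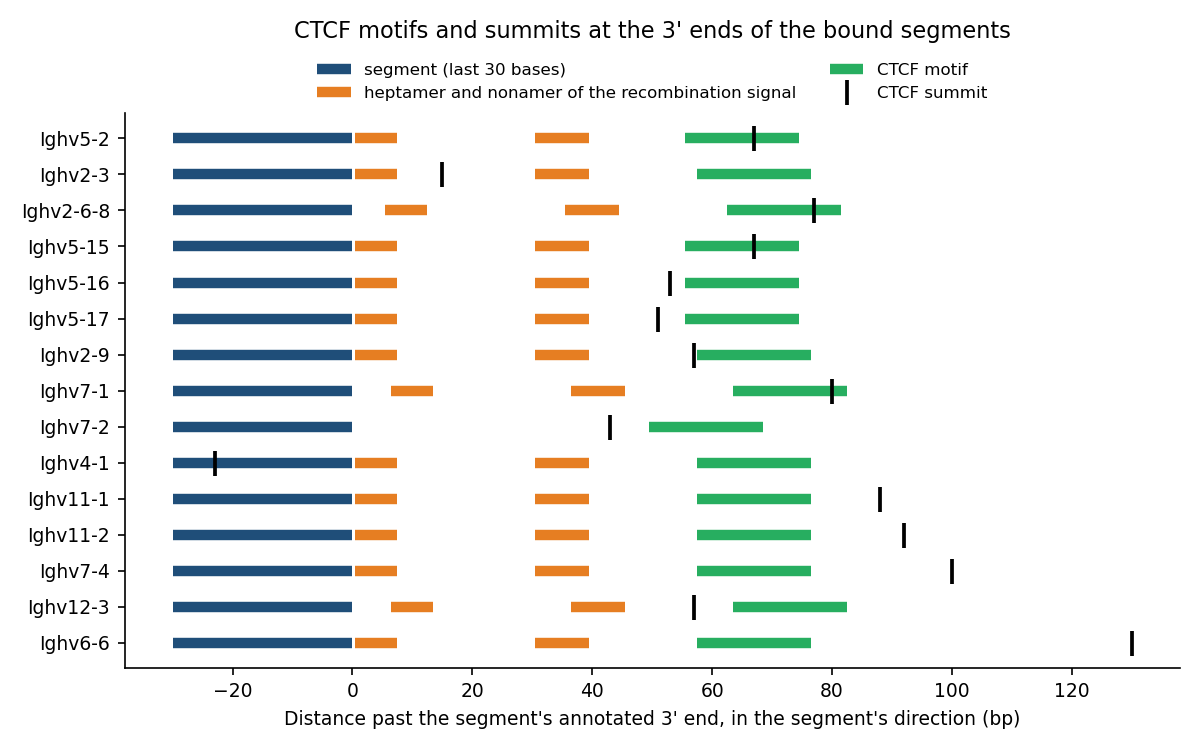
The 15 segments with a CTCF summit within 1 kb, from the D side at the top to the distal side at the bottom, aligned at the annotated 3′ end at 0 bp; the horizontal axis gives the distance past that end in bp. Bars show the end of the segment, the heptamer and nonamer of the recombination signal and the CTCF motif, and ticks show the CTCF summit. The motifs begin between 50 and 64 bp, while the summits spread from -23 to 130 bp.

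The strength of each peak is given as its summit pileup, the number of fragments at the summit summed over the 4 libraries, as recovered from the deposited fold and p-value. All 26 values of the window came out within 0.05 of a whole number. The strongest peak within the cluster followed Ighv5-17 (chr12:115097069-115097494), with a pileup of 197 over a local background of 7.78 and a deposited fold of 22.5. Ighv12-3 (chr12:115604429-115604881) had a pileup of 110 and Ighv7-2 (chr12:115150013-115150319) had 108. These are the 3 highest of 20 values. Ighv2-9 (chr12:115117056-115117431) had a pileup of 94, Ighv5-2 (chr12:114816194-114817078) had 91, Ighv11-2 (chr12:115286162-115286548) had 84 and Ighv11-1 (chr12:115219817-115220171) had 83. Ighv5-15 (chr12:115064629-115064963) had 64, Ighv2-6-8 (chr12:115034114-115034455) and Ighv7-1 (chr12:115134356-115134774) had 58 each, and Ighv4-1 (chr12:115186352-115186666) had 57. The lowest were Ighv5-16 (chr12:115076541-115076870) with 47, Ighv2-3 (chr12:114849208-114849476) with 40, Ighv6-6 (chr12:115672792-115673032) with 36 and Ighv7-4 (chr12:115460789-115461011) with 32. A strong motif did not mean a high peak in every case. Ighv2-3 and Ighv2-6-8 share their 19 bases, with a score of 21.44, and differed in pileup with 40 and 58, and Ighv7-2 and Ighv7-4 share a word with a score of 15.35 and had 108 and 32.

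Over the 20 peaks between the first and last segment the median pileup was 58, with a 95% interval of the median from 40 to 84, against 69 over all CTCF peaks. Their median fold was 8.44, against 6.66 over all peaks. The local background was 5.993 fragments at 19 of the 20 peaks, the same low value at each, and 7.78 at the peak of Ighv5-17. Over all CTCF peaks the 5% point of the background was 5.99. At the 19 peaks the fold follows from the pileup alone, so a fold above that of all peaks does not mean more fragments. The 20 peaks fell in the 860.6 kb nearest to the D segments, a density of 23.2 per Mb, against 28.9 per Mb over the genome and 25 per Mb over chromosome 12. Over the whole window the density was 9.9 per Mb for CTCF and 2.67 per Mb for Rad21, where chromosome 12 had 22.3 Rad21 peaks per Mb.

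**Figure D2:**
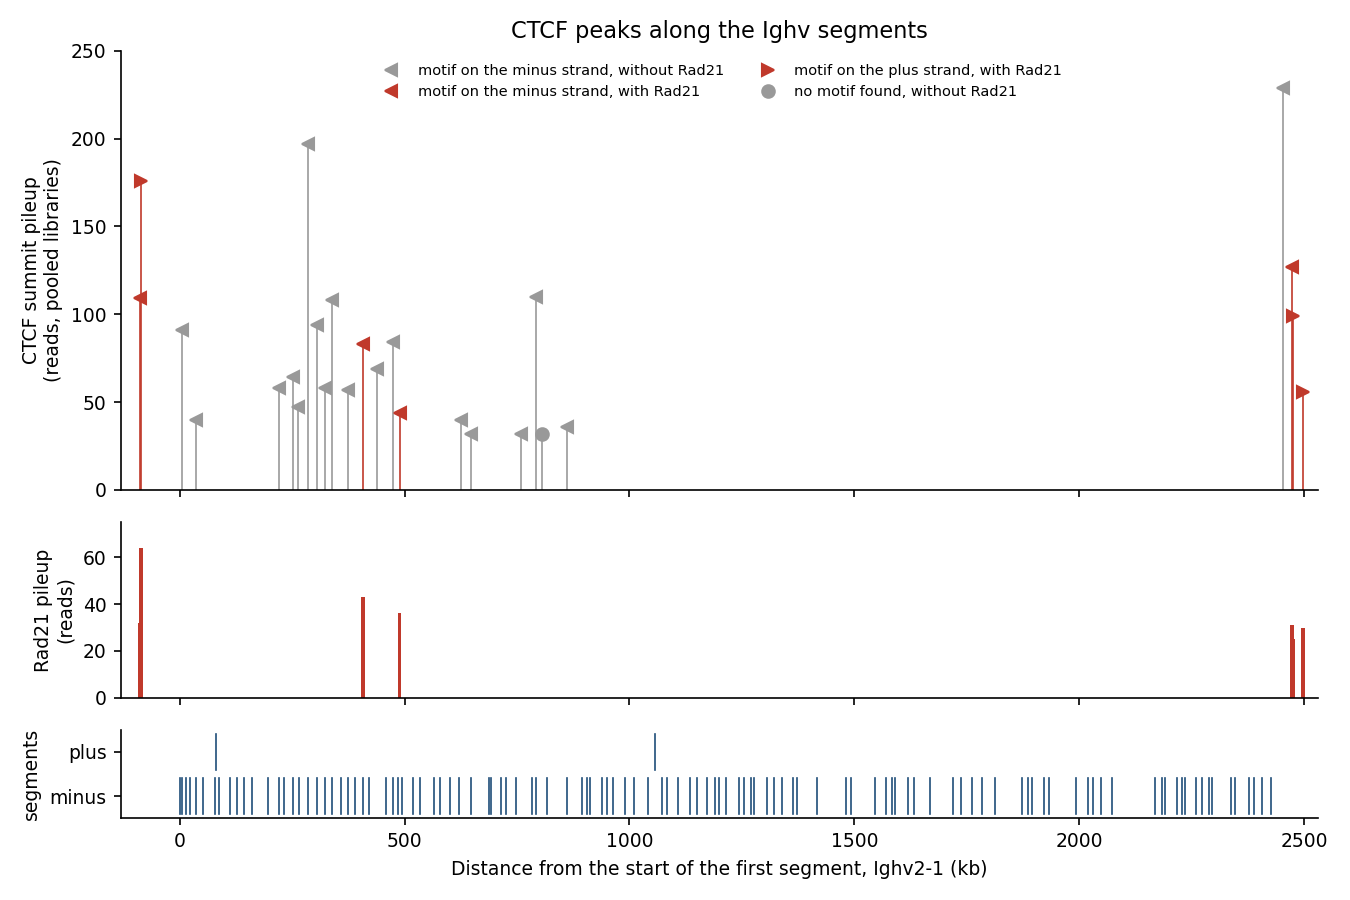
CTCF summit pileup (top, fragments over the 4 pooled libraries) and Rad21 summit pileup (middle, 3 pooled libraries) against the distance from the start of Ighv2-1 in kb, with the segments below by strand. Arrowheads point in the direction of the CTCF motif and are red where the peak overlaps a Rad21 peak. The 20 peaks of the cluster sit in its first 860.6 kb, and 19 of them carry a motif on the minus strand.

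The peaks were unevenly divided between the families. A CTCF summit lay within 1 kb of 15 of the 116 segments, or 12.9% (95% Wilson interval 8 to 20.2%), and within 5 kb of 18. Among 714 protein-coding genes no longer than the longest segment, 16.0% had a CTCF summit within 1 kb. Their share within 5 kb was not counted. Families 5 and 2, which alternate at the D side of the cluster, accounted for 4 of 10 and 3 of 10 segments with a summit. Family 7 followed with 3 of 4, family 11 with 2 of 2, family 6 with 1 of 2, and families 4 and 12 with their only member. Family 1, the largest with 58 segments, had 0, as did family 8 with 8, family 3 with 6, families 9 and 14 with 4 each, families 10 and 13 with 2 each and families 15 and 16 with 1 each. Segments with a summit within 1 kb are called bound below. Ordered along the chromosome, 13 of the 39 segments nearest to the D segments had a summit within 1 kb, 2 of the middle 39 and 0 of the distal 38.

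The families also differed in whether they carried the motif at all. A motif match at p of at most 1e-05 lay within 1 kb past the 3′ end of 30 segments, and on all 30 it pointed in the direction of the segment. The share of other genes with such a match was not counted, and chromosome 12 held 49.9 matches per Mb. Of these 30, 14 had a CTCF summit within 1 kb and 16 had none. The remaining segment with a summit, Ighv6-6, had a weaker match with a score of 10.1. Families 5 and 2 had the motif at 9 of 10 and 8 of 10 segments and family 7 at 3 of 4, while family 1 had it at 1 of 58 and families 3, 8, 9, 14 and 15 at 0. At Ighv1-12, the member of family 1, the motif centre lay 477 bp past the 3′ end, outside the range of 59 to 82 bp seen at the others.

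**Figure D3:**
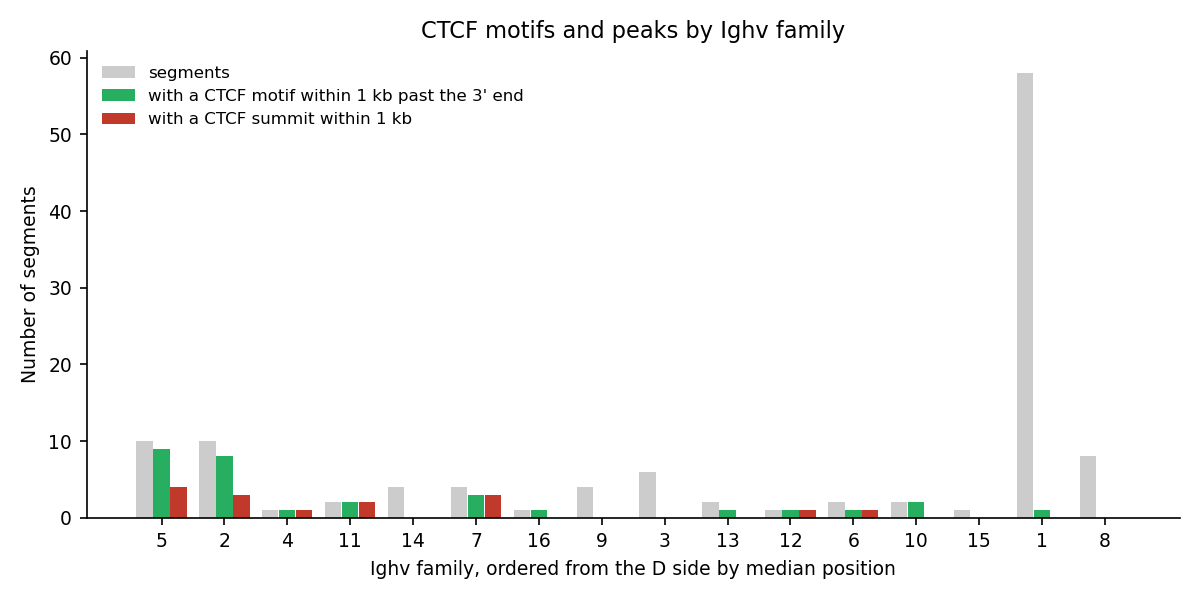
Number of segments (grey), of segments with a CTCF motif within 1 kb past the 3′ end (green) and of segments with a CTCF summit within 1 kb (red) for the 16 Ighv families, ordered from the D side. Families 5 and 2 carry most of the motifs, and family 1, with 58 segments, has 1 motif and 0 summits.

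Within families 2 and 5, the motif was present at 17 of 20 segments and a peak at 7. The motif scores of the 7 bound segments ranged from 17.29 to 21.44, with a median of 21.2, and those of the 10 unbound ones from 14.13 to 21.44, with a median of 19.28. The motif centre lay 65 to 72 bp past the 3′ end at the bound and 62 to 72 bp at the unbound segments, so the place of the motif did not separate them. The word CAACCAGCAGGGGGCGCTG also followed Ighv2-6 (chr12:114954805-114954823), where no peak was listed. Unique sequence differed in part between these groups. The share of unique 50-mers around the 3′ end was 80.8 to 100%, with a median of 89.5%, at the bound segments, and 58.3 to 90.8%, with a median of 75.85%, at the unbound ones. Within 150 bp of the motifs themselves the ranges overlapped more widely, with 79 to 100% and a median of 100% at the bound, and 39.3 to 100% and a median of 87.15% at the unbound segments. Among the latter, Ighv2-9-1 had 100%, Ighv2-2 had 97.7% and Ighv5-9-1 had 93.3%. Reads that match several places were discarded when the peaks were made, and the part of this in the missing peaks was not tested.

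Most of the unbound segments of these families were neighbours. Between the peaks of Ighv2-3 and Ighv2-6-8 an interval of 184.6 kb (chr12:114849477-115034113) held 9 segments, all of families 2 and 5, of which 8 carried the motif with scores of 14.13 to 21.44, and 0 CTCF peaks, as its bounds, the ends of 2 neighbouring peaks, require. At the scores of its 11 motif matches, 49.5% of matches elsewhere lay in a peak, which would amount to 5.44 of the 11. The reference sequence there was unique at 71.9% of 50-mers, the length of the reads.

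All motifs found in the CTCF peaks of the cluster pointed the same way. The authors' motif strand was the strand of the nearest segment at 14 of the 14 peaks of the cluster in their class list (95% Wilson interval 78.5 to 100%), and the learnt motif lay on the minus strand at 19 of the 19 peaks in which it was found. Over all class-list sites with a motif, 50.1% had it on the minus strand. The strand of neighbouring segments is shared, so these sites are not independent of each other. Along the chromosome the class-list sites from Ighv5-2 to the second site beyond the last segment formed a run of 16 consecutive sites with a minus-strand motif. Among 20995 such runs in the genome, the median length was 2, the longest was 16, and 2 runs reached that length. The other run of 16, of plus-strand motifs, was at chr7:137662879-138042145.

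In the window as a whole, the authors' strand matched the nearest segment at 17 of 20 sites (85%, 95% Wilson interval 64 to 94.8%). The 3 exceptions lay outside the cluster, 1 before the first segment and 2 beyond the last. The learnt motif gave the same strand as the authors at all 19 window sites where both gave one.

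Rad21 was listed at few of these sites, and flags for other subunits of cohesin are given further below. Of the 20 CTCF peaks of the cluster, 2 overlapped a Rad21 peak (10%, 95% Wilson interval 2.79 to 30.1%), where 67.3% of all CTCF peaks did. Since stronger CTCF peaks overlapped Rad21 more often, the share was also read at matched CTCF pileup: in the same deciles of pileup, 62.5% of all CTCF peaks overlapped Rad21, which would amount to 12.5 of the 20. Among the 15 peaks within 1 kb of a segment, 1 overlapped Rad21, against 65.9% of all peaks at the same pileup. The peak at Ighv5-17 belongs to decile 8, in which 93% of all peaks overlapped Rad21, and had none. The peaks at Ighv7-2 and Ighv12-3 belong to decile 7, with 83.9%, and had none either.

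The 2 sites with a Rad21 peak were the one at Ighv11-1 and a site 3203 bp before the 5′ end of Ighv14-3 (chr12:115301514-115301898). The site at Ighv11-1 had a Rad21 pileup of 43 and a fold of 7.18. The site near Ighv14-3 had a Rad21 pileup of 36, a fold of 6.04 and a CTCF pileup of 44. Neither was the strongest CTCF peak of the cluster. Their Rad21 summits lay 11 and 35 bp from the CTCF summit, on the side toward which the motif points. Of the 5 other window sites with Rad21, 3 had their Rad21 summit on that side too and 2 had it on the opposite side, by 49 and 20 bp. The lowest Rad21 pileup listed anywhere was 15, so weaker Rad21 signal at the other 18 sites would not appear in the list. All 7 Rad21 peaks of the window overlapped a CTCF peak, and 0 stood alone.

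**Figure D4:**
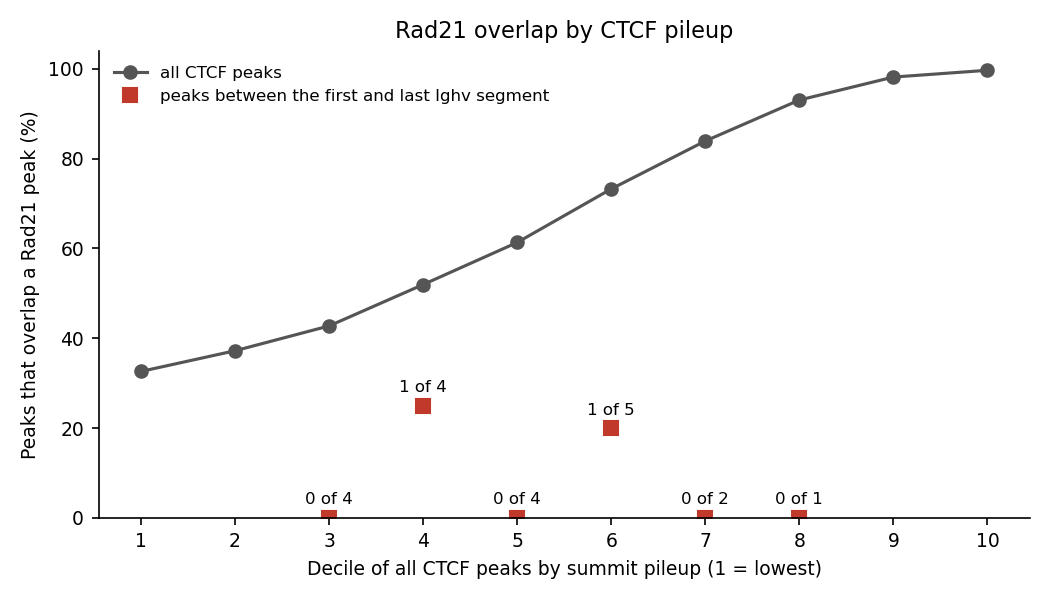
Percent of CTCF peaks that overlap a Rad21 peak, by decile of CTCF summit pileup, for all 76683 CTCF peaks (grey) and for the 20 peaks between the first and last Ighv segment (red, with counts). The genome's share rises from 32.6% in the lowest to 99.6% in the highest decile, and the red points lie below it in each of the 6 deciles that hold a peak of the cluster.

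The authors' class list held 14 of the 20 peaks. The list named 12 lone CTCF sites, which lack a Rad21 peak, and 2 other CAC sites. The latter have CTCF and Rad21 but anchor no predicted loop. The list named 0 anchors of domains or of loops within domains in the window. Over the whole list, 20.1% of sites were of the lone class and 28.4% were anchors of either kind. Flags for overlap with public peaks of Stag1 and Stag2, the alternative subunits that occupy the same place in cohesin, were set at 7 and 9 of the 14 sites, where 70.6% and 88.1% of all listed sites carried them. The flag for Top2b, a topoisomerase found beside CTCF and cohesin, was set at 2 of 14, against 54.8% of all sites. Of the 12 lone sites, 5 carried the Stag1 flag (41.7%) and 7 the Stag2 flag (58.3%), against 26.9% and 57.5% of all lone sites. The 5 sites with no flag, at Ighv5-2, Ighv2-6-8, Ighv5-15, Ighv5-16 and Ighv12-3, lay on the D side of the other listed sites of the cluster except for Ighv12-3. The names of the flags rest on the order of columns that carry no header.

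Beyond Ighv6-6, whose peak is not in the authors' class list, the cluster was without peaks. From chr12:115673033 to chr12:117266070, a stretch of 1593 kb that holds 69 segments, mostly of family 1, 0 CTCF and 0 Rad21 peaks were listed. The bounds of this stretch were set by the peaks, so its counts of 0 follow from that choice and are a description, and the shares of the neighbouring stretch, which ends at a peak, depend on it too. The motif was not missing there. The stretch held 116 motif matches at p of at most 1e-05, or 72.8 per Mb, against 49.9 per Mb on chromosome 12. Of these, 103 lay on the minus strand, the direction of the segments, and 13 on the plus strand. Their median score, taken over matches above the cut of 13.12, was 17.71. The median at the sites from which the motif was learnt was 17.94, and 48 matches of the stretch reached that score. On the even-numbered autosomes 28.4% of matches lay in a CTCF peak, and 69.6% of those that reached a score of 17.94. In the stretch 0 of 116 did. In the stretch nearer to the D segments, 17 of 47 matches lay in a peak (36.2%, 95% Wilson interval 24 to 50.5%), and 9 of 19 with a score of at least 17.94. Intervals of shares cover counting error only.

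A part of the matches belonged to words that recur across the genome, which are seldom bound. Of the 116 matches, 18 consisted of a word with 10 or more other copies on the even-numbered autosomes, and words of that kind lay in a peak at 13.6% of their copies. Of the 59 different words of the stretch itself, 14 occurred elsewhere on these autosomes, at 6476 places, of which 322 lay in a peak (4.97%, 95% Wilson interval 4.47 to 5.53%). That share rests on few words with many copies and does not stand for the stretch's words in general, most of which occurred nowhere else on these autosomes: the word TGACCAGCAGGGGTCACAA, found 11 times in the stretch, had 1 other copy, which lay in a peak. The 98 matches of rarer words had a median score of 17.71, against 15.2 for the rarer matches elsewhere. At the same scores, 62.8% of rarer matches elsewhere lay in a peak, which would amount to 61.5 of the 98. In the stretch with peaks 17 of 42 rarer matches did, where the share elsewhere would give 23.7.

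Repeated sequence was more common in the distal stretch than in the stretch with peaks, and both quantities were read together. Unique 50-mers made up 69.6% of it, against 82.4% of the stretch with peaks, 89.4% of the far flank and 73.4% of the flank on the D side. With 100-mers, which are longer than the reads, the shares were 86.9%, 93.1%, 93% and 91.1%. Around the matches themselves, within 150 bp, the median share of unique 50-mers was 73% in the distal stretch and 100% at the bound matches of the cluster, the lowest of which had 66%. When only places with at least 90% unique 50-mers were counted, 34 matches remained in the distal stretch, 17 of them with a score of at least 17.94. Of either, 0 lay in a peak, as the bounds of the stretch require. The part of repeated sequence in the missing peaks was not tested. Elsewhere, 61.1% of the rarer matches with the scores of the 34 lay in a peak, a share matched for score but not for unique sequence. In the stretch with peaks 14 of 29 matches in such unique sequence lay in a peak.

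The strongest of these unbound motifs in unique sequence, by score, are shown beside bound ones to let their letters be compared, with the motif in capitals and 8 bases on either side, on the minus strand. They are named after the nearest segment. Their scores were 23.88, 21.96, 21.27 and 21.14, where the motif of Ighv5-17 had 21.2. The stretches lie at chr12:115888826-115888860 (Ighv1-14), chr12:115825633-115825667 (Ighv1-9), chr12:116771513-116771547 (Ighv1-64) and chr12:117193893-117193927 (Ighv1-82).
Ighv1-14: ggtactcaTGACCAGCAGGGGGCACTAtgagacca
Ighv1-9: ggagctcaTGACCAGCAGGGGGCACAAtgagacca
Ighv1-64: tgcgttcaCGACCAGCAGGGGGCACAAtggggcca
Ighv1-82: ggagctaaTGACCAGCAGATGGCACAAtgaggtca

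The words differed from the bound ones in their content of CpG, the dinucleotide at which mammalian DNA is methylated. At least 1 CpG stood within the 19 bases at 12 of the 17 bound matches of the cluster (70.6%), at 7 of the 30 unbound ones in the stretch with peaks (23.3%) and at 7 of the 116 in the distal stretch (6.03%). On the even-numbered autosomes, 37.4% of the matches in a peak and 21.3% of those in no peak held a CpG. The letters GGCG stood in 12 of the 17 bound motifs and in 4 of the 116 distal ones, and GGCA in 0 of the 17 and in 61 of the 116. Matched for both score and CpG, 42.8% of matches elsewhere lay in a peak. DNA methylation was not measured in these files.

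The distal matches also stood at another place relative to the segments. Only 3 of 116 lay within 1 kb past a 3′ end, whereas 41 lay 2 to 6 kb before the 5′ end of the nearest segment, all 41 on the minus strand, with a median distance of 3477 bp. They stood before 38 different segments, 36 of the matches before segments of family 1 and 5 before family 8. The 116 matches consisted of 59 different words. The most frequent, GGACCAGCAGGGGGCACAA, occurred 14 times with a score of 19.91, 0 of them in sequence with at least 90% unique 50-mers, and TGACCAGCAGGGGTCACAA occurred 11 times, 3 of them in such unique sequence.

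**Figure D5:**
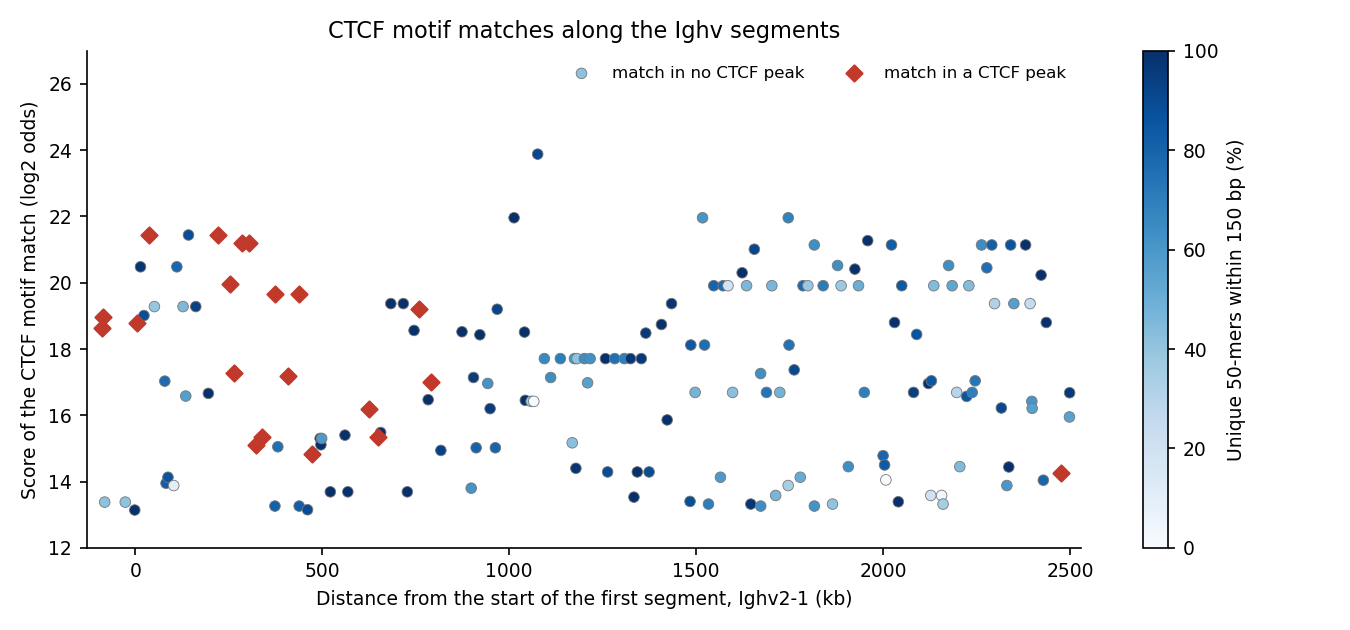
Score of every CTCF motif match of the window at p of at most 1e-05, in log2 odds, against the distance from the start of Ighv2-1 in kb. Red diamonds lie in a CTCF peak and circles do not, with the shade of a circle giving the percent of unique 50-mers within 150 bp. The 20 matches in a peak lie at the D side and in the flanks, and the 116 matches of the distal stretch, many of them dark, lie in none.

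Of the 20 peaks of the cluster, 5 had their summit more than 1 kb from an annotated segment. At 2 of them the sequence resembled a V segment outside the annotated ones. The peak at chr12:115251174-115251520, with a pileup of 69, lay 18250 bp from Ighv14-2, but its summit was 4 bp inside a stretch on the minus strand (chr12:115251355-115251644) that matched the last 290 bases of Ighv4-1 at 95.5% and was followed by a signal with 14 of 16 letters. Its motif, CAACCACCAGGGGGCGATG, is the one behind Ighv4-1. The peak at chr12:115570783-115571028, with a pileup of 32, lay 71 bp past the end of a stretch (chr12:115571002-115571288) that matched Ighv16-1 at 76.9%. No signal was found behind it by the minimum of 13 letters: its best arrangement matched 9, and those at peaks with no resemblance to a segment reached up to 10. At the other 3, the best match to any segment reached 55.9 to 56.6%, no higher than at the peaks of the flanks, where it was 55.9 to 57.2%. These were the site with Rad21 near Ighv14-3, the peak at chr12:115437811-115438064 and the peak at chr12:115617111-115617612. The peak at chr12:115437811-115438064, with a pileup of 40, lay 3011 bp before Ighv3-3. In the peak at chr12:115617111-115617612, with a pileup of 32, the learnt motif was not found.

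The flanks of the cluster differed from it in strand and in overlap with Rad21. Next to the D segment Ighd1-1, on its V side, 2 CTCF peaks stood 88.9 kb and 86.4 kb from the cluster. An intergenic control region that separates V from D and J recombination is known from between the D and V segments. Whether these peaks belong to it was not tested. In the annotation used, 3 D segments, Ighd3-1, Ighd5-1 and Gm16968, lie between these peaks and Ighv2-1. The first (chr12:114723304-114723709) had a pileup of 109 and a minus-strand motif, and the second (chr12:114725870-114726265) had 176 and a plus-strand motif, so that both pointed away from each other. Both overlapped Rad21, with pileups of 32 and 64. Both lie beside Adam6b, a gene of the ADAM family that is active in sperm. Their motifs, with 8 bases on either side, are shown because the strand changes between them. They lie at chr12:114723469-114723503 on the minus strand and chr12:114726088-114726122 on the plus strand.
D side, minus: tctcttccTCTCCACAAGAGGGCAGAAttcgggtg
D side, plus: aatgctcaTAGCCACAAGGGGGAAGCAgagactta

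Beyond Ighv1-85, the strongest CTCF peak of the window (chr12:117266071-117266685) had a pileup of 229 and a fold of 25.2, and overlapped no Rad21 peak, where 93% of all peaks of decile 8 did. It lay 27810 bp before the 5′ end of Ighv1-85, with a minus-strand motif of low score, 11.1. The next 2 peaks, within the zinc finger gene Zfp386, had pileups of 127 (chr12:117285954-117286497, minus strand by the authors' motif) and 99 (chr12:117287896-117288282, plus strand), with Rad21 pileups of 31 and 25. The last peak of the window (chr12:117309475-117309814), before Vipr2, had a CTCF pileup of 56, a plus-strand motif and a Rad21 pileup of 30. Outside the cluster, 5 of 6 window peaks thus overlapped Rad21, against 2 of 20 inside it.

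At the opposite end of the locus, past the constant genes, CTCF was far denser. From 150 kb beyond Ighe (Gm900), the last annotated constant gene, to the start of the window 16 CTCF peaks were listed, with a median pileup of 341.5, and 12 overlapped Rad21. A block of 9 of them between chr12:114454109 and chr12:114462791 had pileups of 218 to 775 and folds of 2.15 to 8.75, 7 with Rad21 at pileups of up to 376. By the authors' strand 6 of these 9 were plus, 1 was minus and 2 had none, and by the learnt motif all 9 were plus. By fold, which divides by the local background, the order was the reverse: 8 of these 9 lay below 8.44, the median of the cluster, where Ighv5-17 had 22.5. This is the side at which the 3′ regulatory region and its CTCF sites are known to lie. Of the 4 J and 21 D segments of the annotation, 0 had a CTCF summit within 1 kb. The plus-strand motifs of this block and the minus-strand motifs of the V cluster point toward each other across the D, J and constant genes. Contacts between them were not measured here.

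The Igkv and olfactory receptor clusters were set beside the V segments as large arrays of like genes. Across the kappa light chain V segments on chromosome 6 (103 genes, 40 on the plus and 63 on the minus strand, 3.35 Mb with the same margin) 20 CTCF peaks were listed, or 5.97 per Mb, of which 9 overlapped Rad21 (45%, 95% Wilson interval 25.8 to 65.8%), against 72.5% of all peaks at the same pileup. Of the 103 Igkv genes, 0 had a CTCF summit within 1 kb, and 3 of 6 peaks within 10 kb of a gene had the motif on its strand. Of the motif matches there 14 of 113 lay in a peak (12.4%), close to the 20 of 171 (11.7%) of the Ighv window, but 6 Igkv matches against 69 Ighv matches reached a score of 17.94. Across the 135 olfactory receptor genes of chromosome 9, counted within 100 kb of a gene, 20 CTCF peaks were listed in 4.46 Mb, or 4.49 per Mb, 12 overlapped Rad21 (60%, 38.7 to 78.1%) against 61.6% of all peaks at the same pileup, and 0 genes had a summit within 1 kb. Counted from the first to the last of these genes, across a wide stretch of other genes, 537 peaks were listed, or 24.8 per Mb, and 70.4% of them overlapped Rad21. Summits within 1 kb of the genes are not particular to Ighv: they were also listed at 9 of 103 Trav genes (8.74%) and 5 of 23 Trbv genes (21.7%) of the T cell receptor loci, against 12.9% of the Ighv segments. The clusters were not tested against each other.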

How the data were processed

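CTCF and Rad21 ChIP-seq peaks were analysed at the Ighv segments. According to the methods, the authors pooled the single-end reads of 50 bp by factor, placed them on mm9 with Bowtie2, retained unique placements, called peaks with MACS2 and dropped blacklisted regions. The score the authors deposited is −log10 of the q-value times 10. Their deposited fold divides summit fragments by a local background, each raised by 1, which makes it a ratio. The deposited −log10 p-value comes from a Poisson model of those fragments. The authors' class list gives a motif score, its strand, a class and flags for public data.

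The members, lists and rules were chosen with earlier results of these data known. The text names the 10 sites of highest pileup in the window, every CTCF peak within 1 kb of a segment, the first and last peak of the window and the segments nearest to these. The unbound motifs, the stretches with and without peaks, the interval of 184.6 kb, the CpG content, the copies of a word and the likeness to segments were chosen after values were seen. Summit pileup was recovered from fold and p-value (Python 3.11.15, NumPy 2.4.6, SciPy 1.17.1, Numba 0.67.0), whole within 0.05 at 99.996% of CTCF and 99.997% of Rad21 peaks. Since lists are pooled, they hold no depth per library, and no test was made. Shares carry 95% Wilson intervals, and medians carry intervals from the binomial ranks. An overlap of 1 bp counted as shared. Gene names came from GENCODE vM1 and from RefSeq synonyms of a later assembly, used for names only. Sequences were read from NCBIM37. The CTCF motif was learnt by 5 rounds of realignment within 100 bp of summits of anchors on odd-numbered autosomes and scanned on even-numbered ones, where the better of overlapping matches was kept. Within peaks a match needed p of at most 1e-04, elsewhere 1e-05. A k-mer was called unique if it occurred at 1 place on either strand of the assembly. Steps were tested on simulated data. Alternatives were the score minimum, the overlap rule, the margin, the motif and the segment set.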

Additional observations from a re-analysis of the deposited data

How the results depend on the processing

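Of 28 alternative settings, 21 left the value within 1.5 times the count or within the interval of the share or median, and 7 moved it. Without the margin, 2 Rad21 peaks remained in place of 7, the share of CTCF peaks with Rad21 fell from 26.9% to 10%, and the share of the authors' motif strands equal to that of the nearest segment rose from 85% to 100%, since the flanking sites were left out. With the 37 segments named in the annotation alone, the median distance of a summit from a segment rose from 78.5 to 67080 bp and the segments with a summit within 1 kb fell from 15 to 2, since most bound segments carry older symbols there. With matches in unique sequence only, 23.9% of the window's motif matches lay in a peak, against 11.7%. Counting peaks only within 100 kb of an olfactory receptor gene of chromosome 9, rather than from the first to the last, changed the density there from 24.8 to 4.49 CTCF peaks per Mb. The last 4 were added after the data were seen. A score of at least 100 left 26 CTCF and 6 Rad21 peaks. No paired analysis was possible because the columns are pooled over libraries and carry no replicate number, and no library could be left out. Depth limits the absent peaks: a site under the authors' threshold is not in the lists, and the fragments lost to repeated sequence were not measured.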

Other observations

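Other antigen receptor loci were counted in the same way for summits near the genes and for motif strand, while recombination signals and the place of the motif were not searched there. Across the Trav segments of the T cell receptor alpha chain on chromosome 14 (103 genes, all 103 on the plus strand), 15 CTCF peaks were listed in 1.65 Mb, or 9.1 per Mb, and 4 overlapped Rad21 (26.7%, 95% Wilson interval 10.9 to 52%), against 63.3% of all peaks at the same pileup. A CTCF summit lay within 1 kb of 9 Trav genes, and 11 of 12 peaks within 10 kb of a gene had the motif on its strand. Of 73 Trav motif matches with a score of at least 17.94, 11 lay in a peak (15.1%). The 23 Trbv segments of the beta chain differed: of 20 CTCF peaks, 13 overlapped Rad21 (65%, 43.3 to 81.9%), against 68% at the same pileup, 5 genes had a summit within 1 kb, 13 of 13 peaks within 10 kb had the motif on the strand of the nearest gene, and 8 of 9 strong matches lay in a peak. Around the 3 Iglv segments of the lambda chain 3 CTCF peaks were listed, 1 of them with Rad21, and 0 of the 3 genes had a summit within 1 kb. These loci were chosen after the values of the Ighv segments were seen, and no difference between them was tested.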
